A study of Homo sapiens with 12 samples.

Results

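TAL1-only intervals that lie far from any GATA1 interval were examined in K562, a human erythroleukemia cell line, in chromatin immunoprecipitation and sequencing (ChIP-seq) data. They were selected on the listed positions of both factors. An interval was taken if it stood in the TAL1 list of control cells, on chromosomes 1 to 22 or X, overlapped no interval of the GATA1 list, and lay more than 12500 bp, edge to edge, from the nearest one. The rule found 961 intervals, here called distant TAL1-only intervals, among 8914 TAL1 intervals on these chromosomes (10.8%, 95% exact binomial interval 10.1 to 11.4%). A further 924 TAL1-only intervals lay within this limit of 12500 bp and are called proximal, and 7029 were shared with GATA1. The distant intervals were thus 51.0% (48.7 to 53.3%) of the 1885 TAL1-only intervals.

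Both groups used were control K562 cells, 1 precipitated with an antibody against GATA1 (sc-1233) and 1 with an antibody against TAL1 (sc-12984), with 1 library each. The series holds 12 libraries, which also cover H3K27ac, LDB1, an input and K562 cells with lentiviral short hairpin RNAs that knock down GATA1 or TAL1. The other 10 libraries were not analysed here. Chromatin was cut with micrococcal nuclease, and fragments of the size of mono- or dinucleosomes were precipitated. K562 is a single, aneuploid line, and no source used here says what the control cells received in place of a knockdown vector.

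TAL1 is a basic helix-loop-helix transcription factor that pairs with E proteins such as those encoded by TCF3 and TCF12 and binds short E-box motifs. In erythroid cells it is best known as part of a complex with LMO2 and LDB1 that holds GATA1 and TAL1 together at enhancers, and in this complex TAL1 can be held on DNA through its partners. In blood stem and progenitor cells and in T cell leukemia, TAL1 also works with other factors, among them GATA2 or GATA3, RUNX1 and ETS proteins.

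The lists give the start and end of each interval and no height, summit, fold enrichment or p-value, and the depth of the libraries is unknown. An interval absent from the GATA1 list is therefore an interval that was not listed, which is not the same as a place without GATA1. Each factor had 1 library and positions chose the members, so no test was made and nothing below is shown to be particular to the distant intervals. Exact intervals for shares (Clopper-Pearson) and for densities (Poisson) treat listed intervals as units and cover counting error only. Positions are those of hg19, counted from 1.

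The distances to GATA1 that chose the members ranged from 12517 bp to 5.14 Mb, with a median of 47.1 kb and quartiles of 24.6 and 105 kb. Of the 961 distant intervals, 713 (74.2%) lay more than 25 kb away, 458 (47.7%) more than 50 kb, 255 (26.5%) more than 100 kb, 44 (4.58%) more than 500 kb and 17 (1.77%) more than 1000 kb. The limit fell in a well-filled part of the distribution. Just inside it were chr6:36997080-36997549 in 6p21.2, chr8:96281368-96282272 in 8q22.1 and chr7:150052423-150052684 in 7q36.1, at 12517, 12518 and 12520 bp. Just outside it were chr3:183195939-183196170 in 3q27.1, chr1:10092536-10093315 in 1p36.22 and chr20:44448793-44448969 in 20q13.12, at 12471, 12432 and 12423 bp.

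Because most of the genome is far from GATA1, the counts were set against the sequence available. Outside centromeric, variable and stalk bands, 2452 Mb (87.2% of the sequence used) lay beyond the limit and held 955 distant intervals, or 0.390 per Mb (0.365 to 0.415). The 353 Mb within the limit, outside the GATA1 intervals themselves, held 916 proximal intervals, or 2.60 per Mb (2.43 to 2.77). TAL1-only intervals were therefore sparser per Mb in the distant sequence, although the counts of distant and proximal intervals were nearly equal. That near equality depends on counting intervals. With TAL1 intervals within 2 kb joined to 1 site, 927 distant sites made up 60.6% of the TAL1-only sites. The densities here are those of unjoined intervals.

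The density fell with distance on both sides of the limit and across it, where the exact intervals of the neighbouring classes did not overlap. The classes differ in breadth and cannot show whether there is a step at the limit itself. It was 5.21 TAL1-only intervals per Mb (4.75 to 5.69) within 2.5 kb of GATA1, 1.89 (1.59 to 2.22) from 2.5 to 5 kb and 1.58 (1.40 to 1.77) from 5 kb to the limit. Beyond the limit it was 1.13 per Mb (0.998 to 1.29) up to 25 kb, 0.897 (0.790 to 1.01) from 25 to 50 kb and 0.623 (0.540 to 0.715) from 50 to 100 kb. It was 0.365 per Mb (0.305 to 0.433) from 100 to 200 kb, 0.151 (0.119 to 0.189) from 200 to 500 kb and 0.0576 (0.0418 to 0.0773) beyond 500 kb. The steepest drop between neighbouring classes inside the limit was after 2.5 kb, and beyond the limit the relative drops grew with distance. Gaps of the genome assembly were not masked, so the densities of the most distant classes are understated.

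Distance to GATA1 goes along with chromosome banding, in which unstained bands are generally rich in genes and dark bands poor in them. The decline with distance was seen in each class of bands. In unstained bands the density was 1.05 per Mb (0.885 to 1.25) from the limit to 25 kb, 0.488 (0.392 to 0.600) at 100 to 200 kb and 0.0921 (0.0555 to 0.144) beyond 500 kb. In the darker bands (the 2 darkest Giemsa classes) it was 1.34 (0.988 to 1.77), 0.202 (0.120 to 0.319) and 0.0343 (0.0192 to 0.0565) at the same distances. The exact intervals of unstained and darker bands overlapped in every distance class beyond the limit except 100 to 200 kb.

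**Figure D1:**
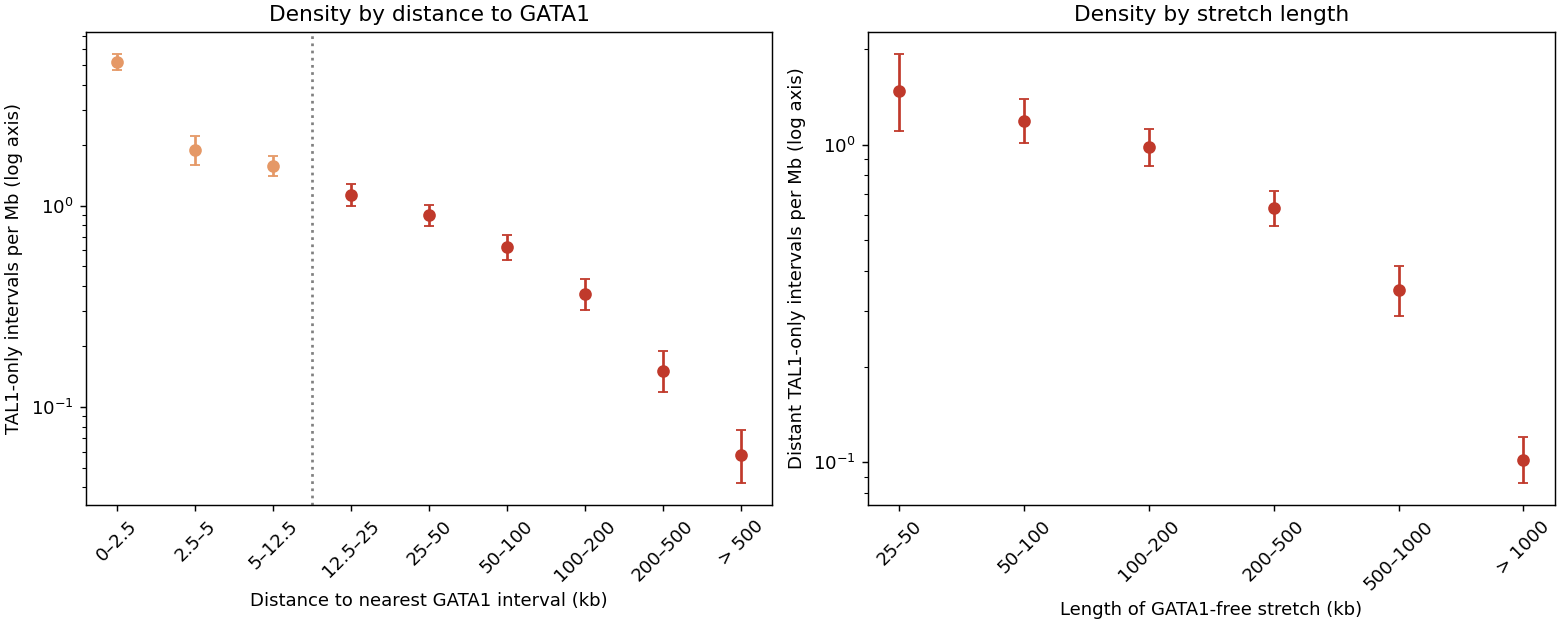
TAL1-only intervals per Mb of sequence (log axes), with exact Poisson 95% intervals as bars. On the left, by distance to the nearest GATA1 interval in kb, with proximal classes in orange, distant classes in red and the limit as a dotted line; the density falls from 5.21 to 0.0576 per Mb. On the right, distant intervals by the length in kb of the GATA1-free stretch that holds them; the density falls from 1.48 to 0.102 per Mb.

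Each distant interval sits in a stretch of sequence between neighbouring GATA1 intervals. Of 10533 such stretches longer than 25 kb, the least that can hold a member, 825 held at least 1 and together they held 952 members. The other 9 members lay in stretches that run to a chromosome end. Stretches that held a member had a median length of 213 kb, against 80.5 kb for all stretches above 25 kb. A longer stretch offers more sequence beyond the limit, so a part of this contrast is built in. Most of the 833 stretches with a member held a single one (720), while 99 held 2, 13 held 3 and 1 held 4.

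Longer stretches held a member more often, yet less densely. The share of stretches with a member was 1.58% (1.17 to 2.08%) at 25 to 50 kb, 9.89% (8.62 to 11.3%) at 100 to 200 kb and 19.8% (16.6 to 23.3%) above 1000 kb. Per Mb of sequence beyond the limit, members numbered 1.48 (1.10 to 1.93), 0.980 (0.856 to 1.12) and 0.102 (0.0859 to 0.120) in the same classes. The stretches above 1000 kb include those that span centromeres and assembly gaps.

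Within a stretch, the place of a member was measured from the limit (0%) to the middle (100%), for which evenly spread positions would have a median of 50%. The median was 44.8%, and 522 of 952 members (54.8%) lay nearer to the limit than to the middle. The median place was 58.1% in stretches of 25 to 50 kb and 55.9% in those of 50 to 100 kb. It was 49.7% at 100 to 200 kb, 44.9% at 200 to 500 kb, 40.9% at 500 to 1000 kb and 23.7% above 1000 kb. Nearer to the limit than to the middle lay 22 of 52 members at 25 to 50 kb, 71 of 158 at 50 to 100 kb and 107 of 145 above 1000 kb. Members of the longest stretches thus lay toward a GATA1 interval. Centromeres and assembly gaps were not removed from these stretches, and the reference of 50% does not allow for them. In the short stretches the lean toward the middle was slight and rests on these small counts.

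The stretch with most members was in 12p13.1 and 1.33 Mb long. Its 4 intervals were chr12:13214309-13214684, chr12:13589871-13590246, chr12:14388123-14388244 and chr12:14388302-14388452, the last 2 of them 57 bp apart. At 1q42.13, a stretch of 0.226 Mb held 3 single intervals at chr1:227784014-227784273, chr1:227873573-227873742 and chr1:227950205-227950455. At 3q25.1, a stretch of 0.203 Mb held chr3:151443907-151444213, chr3:151537664-151538239 and chr3:151569944-151570141, the farthest of them 56.9 kb from GATA1.

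The member farthest from GATA1 was chr14:44918136-44918548 in 14q21.2, 413 bp wide and 5.14 Mb from both the nearest GATA1 interval and the nearest other TAL1 interval. The next was chrX:96455581-96455774 in Xq21.33, 194 bp wide and 3.86 Mb away. On chromosome 9, chr9:86238697-86238901 in 9q21.32 (205 bp) lay 2.66 Mb and chr9:86958123-86958536 in 9q21.33 (414 bp) 1.94 Mb from GATA1, within the same stretch of 8.28 Mb. In 3q13.31 a pair, chr3:115758446-115758731 and chr3:115758987-115759320, lay 2.40 Mb from GATA1 with 255 bp between them. The remaining members of the 10 farthest were in 18q23 (2.11 Mb), 13q33.1 (1.93 Mb), 2q14.3 (1.89 Mb) and 4q26 (1.54 Mb). Their widths of 194 to 415 bp were within the range of the other members, so great distance did not go with extreme width.

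Beyond 500 kb the 44 members were spread over 19 chromosomes, with 6 on X, 5 on 3 and 4 each on 2, 13 and 14. Of these 44, 34.1% (20.5 to 49.9%) were in dark bands. In 4 classes of nearly equal number, from the members nearest to GATA1 to those farthest away, the dark share was 20.3, 14.2, 18.8 and 19.6%, with no trend over the members. Dark bands held 18.2% (15.8 to 20.8%) of all distant, 12.3% (10.3 to 14.6%) of proximal and 14.0% (13.2 to 14.8%) of shared intervals. Unstained bands held 58.5% (55.3 to 61.6%), 62.7% (59.5 to 65.8%) and 59.2% (58.1 to 60.4%), and these exact intervals overlapped. The rule bears on the dark share, since 92.0 and 95.5% of the sequence in the 2 darkest classes lay beyond the limit, against 83.2% in unstained bands.

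The distant intervals were narrower than shared intervals and wider than proximal ones. Their median width was 298 bp (order-statistic 95% interval 286 to 307), with quartiles of 205 and 390 bp and a range of 85 to 1257 bp. Proximal intervals had a median of 250.5 bp (241 to 262) and shared ones 373 bp (368 to 379), that is 47.5 bp less and 75 bp more than the distant ones. Widths under 150 bp were found in 11.6% (9.60 to 13.7%) of distant, 19.8% (17.3 to 22.5%) of proximal and 6.05% (5.50 to 6.63%) of shared intervals. Widths above 500 bp were found in 9.89% (8.07 to 11.9%), 8.23% (6.53 to 10.2%) and 23.1% (22.1 to 24.1%). All shared intervals have the same boundaries in both lists, so their width may reflect how the common intervals were made, which was not tested.

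The gap in width to the proximal group depended on how close intervals lay to GATA1 and to other TAL1 intervals of any group. The 343 proximal intervals within 1 kb of GATA1 had a median width of 204 bp, and the 581 from 1 kb to the limit had 282 bp (267 to 296), 16 bp less than the distant ones. Among intervals with no other TAL1 interval within 12500 bp, the medians were 307 bp for 858 distant, 298 bp for 341 proximal and 401 bp for 3794 shared intervals. Among intervals with such a neighbour, they were 211 bp for 103 distant, 232 bp for 583 proximal and 338 bp for 3235 shared intervals. The difference from shared intervals was therefore present in both subsets. That from proximal ones was small among solitary intervals and reversed among those with a neighbour. The difference of 47.5 bp to proximal intervals was 26 bp without TAL1 intervals under 150 bp, 19 bp with TAL1 intervals within 2 kb joined, and 94.5 bp without GATA1 intervals under 150 bp.

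**Figure D2:**
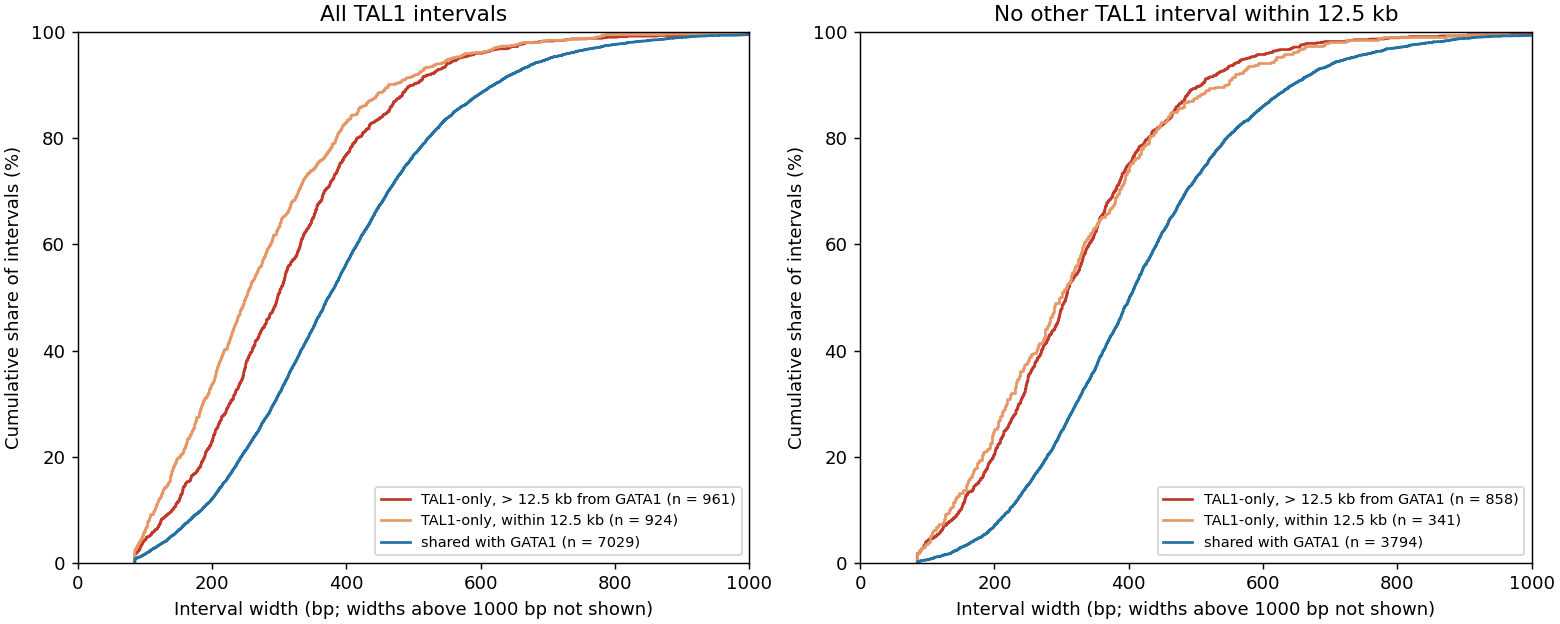
Cumulative share of TAL1 intervals (%) by width in bp, for distant (red), proximal (orange) and shared (blue) intervals, over all intervals (left) and over those with no other TAL1 interval within 12500 bp (right). The distant curve lies between the others on the left (medians 250.5, 298 and 373 bp) and close to the proximal one on the right (298 and 307 bp).

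Median width differed little between classes of distance beyond the limit. In 4 classes of nearly equal number, from the members nearest to GATA1 to those farthest away, median widths were 301, 287, 304 and 294.5 bp. The 5 widest members were 905 to 1257 bp wide and lay in the nearest or the farthest of these 4 classes. They were chr16:30669184-30670440 in 16p11.2 (23.3 kb from GATA1), chr7:91874521-91875573 in 7q21.2 (109 kb), chr18:11980445-11981493 in 18p11.21 (17.5 kb), chr11:64240198-64241167 in 11q13.1 (115 kb) and chr8:96281368-96282272 in 8q22.1, which was also among those nearest to the limit.

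Seen from all TAL1 intervals, the share that was distant declined with width. It was 16.4% (14.1 to 19.0%) of the 894 narrowest (85 to 163 bp), 13.3% (11.2 to 15.7%) at 270 to 311 bp, 7.92% (6.22 to 9.90%) at 395 to 442 bp and 4.27% (3.04 to 5.81%) of the 890 widest (599 bp or more). The decline was not particular to distant intervals. From the narrowest to the widest class, the proximal share fell from 23.9% (21.2 to 26.9%) to 3.93% (2.75 to 5.43%). The shared share rose from 59.6% (56.3 to 62.9%) to 91.8% (89.8 to 93.5%).

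**Figure D3:**
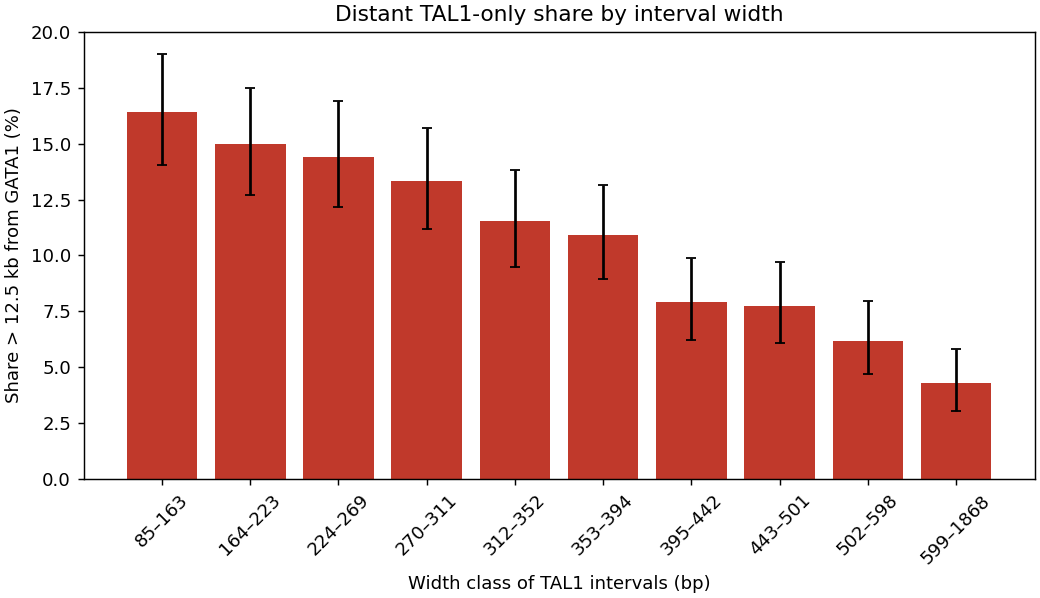
Share of TAL1 intervals (%) that lay more than 12500 bp from GATA1, in 10 classes of interval width in bp with nearly equal numbers; bars start at 0 and error bars are exact binomial 95% intervals. The share falls from 16.4% in the narrowest class to 4.27% in the widest. The proximal share, which is not drawn, falls from 23.9% to 3.93%.

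Distant intervals mostly stood alone. The nearest other TAL1 interval was a median of 77.3 kb away (quartiles 28.3 and 192 kb), against 5620.5 bp for proximal and 16636 bp for shared intervals. Another TAL1 interval lay within 12500 bp of 103 of the 961 (10.7%, 8.83 to 12.8%), against 63.1% (59.9 to 66.2%) of proximal and 46.0% (44.9 to 47.2%) of shared intervals. Part of this is fixed by the rule, since a shared interval is itself a GATA1 interval and cannot lie within 12500 bp of a member.

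Counting only TAL1-only neighbours leaves shared intervals out, and the shares of both TAL1-only groups were then close. The rule still bears on this comparison, since proximal intervals are bound to sequence near GATA1. Of the 103 distant intervals with a TAL1 neighbour within 12500 bp, that neighbour was proximal for 3. The density of TAL1-only intervals also differed, at 0.390 per Mb beyond the limit and 2.60 within it, so the shares are not like for like. Another TAL1-only interval lay within 12500 bp of 10.7% (8.83 to 12.8%) of distant and 12.4% (10.4 to 14.7%) of proximal intervals. Within 1 kb the shares were 6.87% (5.35 to 8.66%) and 5.63% (4.23 to 7.31%). The exact intervals overlapped at both distances.

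The nearest TAL1 neighbour was a shared interval for 636 members (66.2%, 63.1 to 69.2%). For 250 (26.0%, 23.3 to 28.9%) it was another distant and for 75 (7.80%, 6.19 to 9.68%) a proximal interval. Shared intervals made up 78.9% (78.0 to 79.7%) of the TAL1 list, but the rule lowers their share among nearest neighbours. The 103 members with a TAL1 neighbour within 12500 bp cannot have a shared interval as the nearest one. Another TAL1 interval was nearer than any GATA1 interval for 200 members (20.8%, 18.3 to 23.5%). For 243 (25.3%, 22.6 to 28.2%) the nearest TAL1 and the nearest GATA1 interval were equally far. Between distant intervals alone, the median gap to the nearest was 544009 bp.

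**Figure D4:**
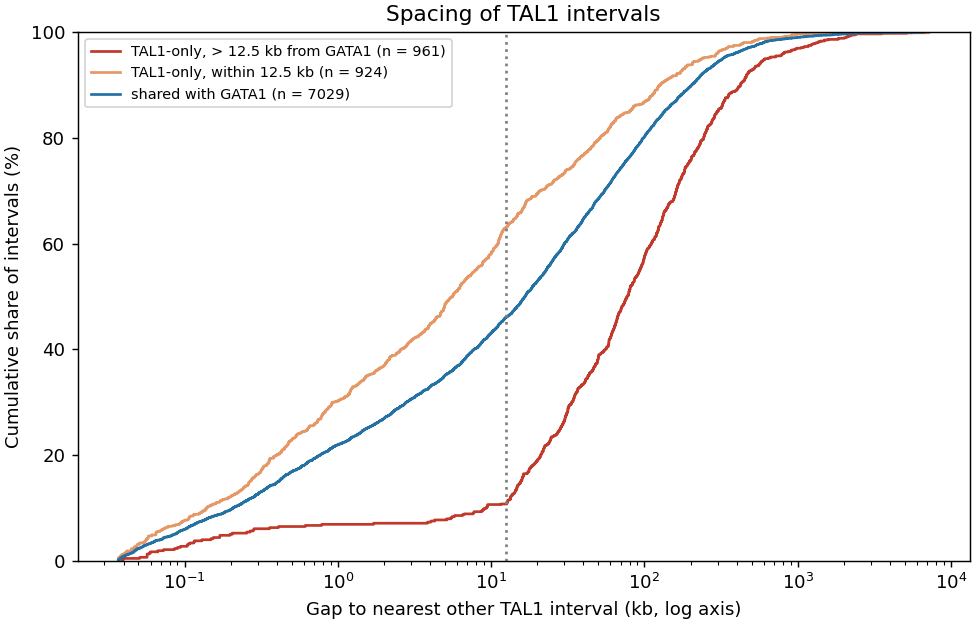
Cumulative share of TAL1 intervals (%) by the gap to the nearest other TAL1 interval in kb (log axis), for distant (red), proximal (orange) and shared (blue) intervals, with 12500 bp as a dotted line. At that line the curves stand at 10.7%, 63.1% and 46.0%.

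Where distant intervals came together, they came in pairs. Joining members across gaps of at most 12500 bp gave 861 single intervals, 50 pairs and 0 groups of 3 or more. The median gap within a pair was 230 bp. It was at most 100 bp in 13 pairs, at most 500 bp in 31 and at most 1000 bp in 33, while 4 pairs had gaps from 1000 to 5000 bp and 13 wider ones. Most pairs were thus close, and the gaps above 1000 bp were spread from 1709 to 9506 bp, where the joining limit sets the upper bound. The pairs were on 21 chromosomes, with no more than 5 on any. With TAL1 intervals within 2 kb joined to 1 site, the share of distant sites with a TAL1 neighbour within 12500 bp was 3.78%, against 10.7% of intervals.

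The 66 members of pairs with gaps of at most 1000 bp had a median width of 189.5 bp, against 305 bp for the other 895. The closest pair was in 19p13.11, where chr19:18794084-18794334 and chr19:18794374-18794578 were separated by 39 bp. The next were in 18p11.22 (chr18:9348384-9348523 and chr18:9348564-9348665, 40 bp apart) and 8q13.2 (chr8:69127339-69127527 and chr8:69127579-69127827, 51 bp apart). Gaps of 57 bp were found in 12p13.1 (named above), 14q12 (chr14:24682293-24682480 and chr14:24682538-24682870) and 16p11.2 (chr16:30107533-30107647 and chr16:30107705-30107857). These 6 pairs spanned 282 to 578 bp from end to end, a size that single members also had. Whether such a pair is 2 sites or 1 enriched region listed in 2 pieces was not tested, because the lists give no summit.

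Distant intervals were found on every chromosome examined, and their share of the TAL1 list differed between chromosomes. The share was highest on chromosome 13 (25 of 101, 24.8%, 16.7 to 34.3%), 14 (34 of 187, 18.2%, 12.9 to 24.5%), 21 (19 of 107, 17.8%, 11.0 to 26.3%) and X (33 of 192, 17.2%, 12.1 to 23.3%). It was lowest on chromosome 6 (41 of 659, 6.22%, 4.50 to 8.35%), 1 (86 of 1148, 7.49%, 6.04 to 9.17%) and 7 (42 of 518, 8.11%, 5.91 to 10.8%). The exact intervals of chromosomes 13, 14, 21 and X lay above those of chromosomes 6, 1 and 7. With a limit of 50 kb the highest share was still on chromosome 13 (15.8%), and the lowest was on chromosome 19 (1.55%).

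This order followed the number of GATA1 intervals, which the rule uses. Chromosomes 13, X and 14 had 1.87, 2.44 and 3.94 GATA1 intervals per Mb, the lowest of all, and chromosome 21 departed from them with 8.45. Over the 23 chromosomes, which are parts of the same libraries, the share of distant intervals had a Pearson r of -0.69 and a Spearman rho of -0.75 with GATA1 density. Without chromosomes 13 and 19, r was -0.68. Where GATA1 intervals are few, more of the sequence lies beyond the limit (96.2% of chromosome 13 and 67.9% of chromosome 19), so a part of this relation is built in.

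Per Mb of sequence beyond the limit, the order differed. Chromosome 19 had most distant intervals, at 1.01 per Mb (0.690 to 1.42), followed by 17 (0.735, 0.536 to 0.983), 22 (0.712, 0.429 to 1.11), 21 (0.649, 0.391 to 1.01) and 16 (0.638, 0.460 to 0.862). Chromosomes 4 (0.227, 0.161 to 0.310), X (0.231, 0.159 to 0.324) and 13 (0.272, 0.176 to 0.401) had fewest. Chromosome 21 was thus high on both measures, and chromosomes 6 (0.297, 0.213 to 0.404) and 7 (0.317, 0.228 to 0.428) were low on both, while 13 and X were high by share and low per Mb. This density had r = 0.76 and rho = 0.65 with GATA1 density (r = 0.58 without chromosomes 13 and 19). With the density of all other TAL1 intervals it had r = 0.82 and rho = 0.70 (r = 0.63 without chromosomes 19 and 22). Chromosomes with many TAL1 intervals of the other kinds thus also had more distant ones per Mb available. Copy number of K562 chromosomes was not measured, and its part in these densities was not tested.

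**Figure D5:**
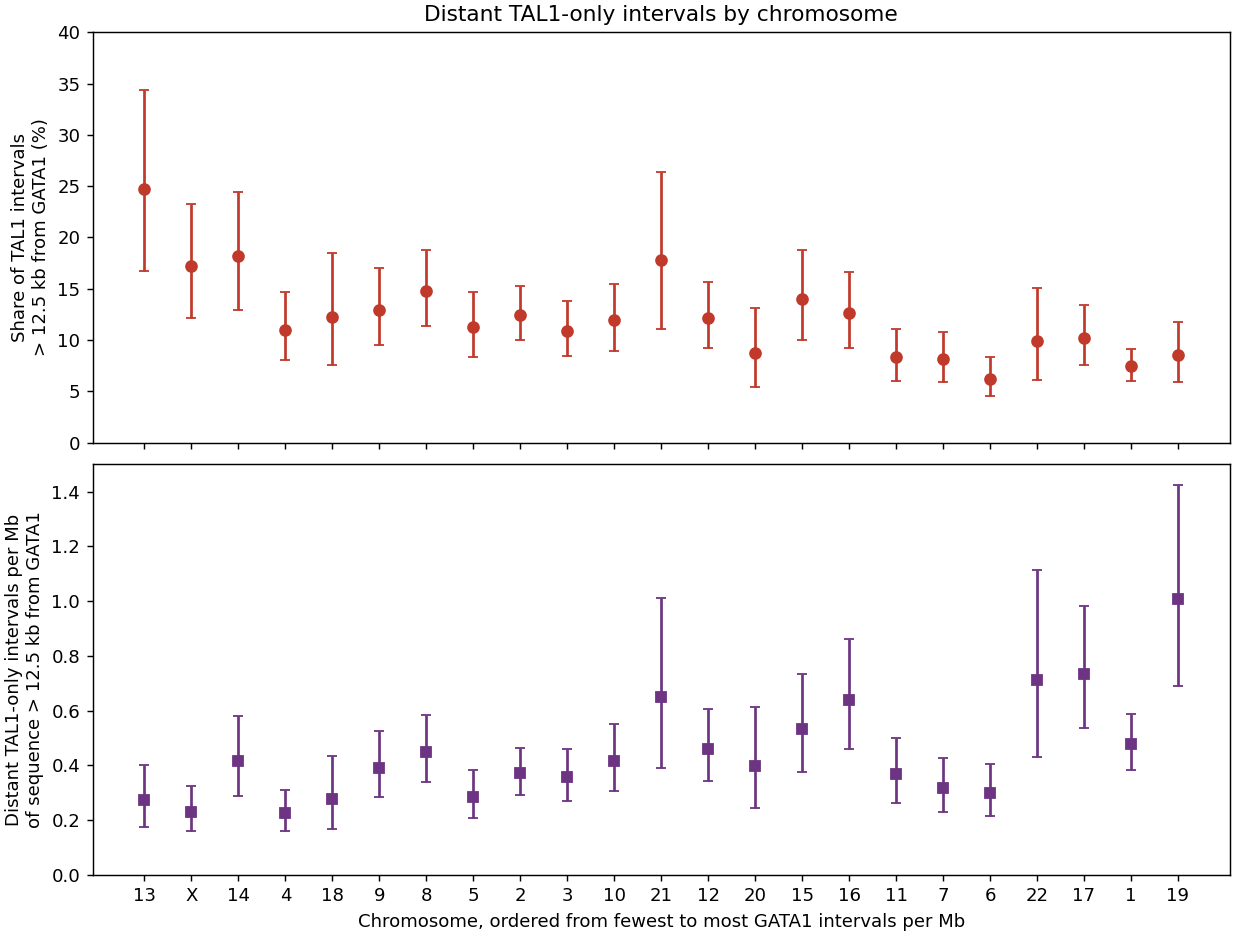
Distant TAL1-only intervals on 23 chromosomes, ordered along the x axis from fewest to most GATA1 intervals per Mb. Above, their share of all TAL1 intervals (%, exact binomial 95% intervals), which runs from 24.8% on chromosome 13 to 8.51% on chromosome 19; below, their number per Mb of sequence more than 12500 bp from GATA1 (exact Poisson 95% intervals), which runs from 0.272 to 1.01.

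Among TAL1-only intervals, distant ones outnumbered proximal ones on 12 chromosomes, were fewer on 9 and equalled them on 2. The share was highest on chromosome 21 (19 of 24, 79.2%, 57.8 to 92.9%) and lowest on chromosome 19 (33 of 85, 38.8%, 28.4 to 50%).

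By chromosome arm, among the 41 arms with at least 20 TAL1 intervals, the distant share of TAL1 intervals was highest on 13q (24.8%), Xq (22.2%, 14.5 to 31.7%), 12p (20.8%, 13.5 to 29.7%), 20p (20%, 10.0 to 33.7%) and 9p (18.6%, 9.69 to 30.9%). It was lowest on 6p (17 of 366, 4.64%, 2.73 to 7.33%), 20q (5.56%, 2.70 to 9.98%), 5p (4 of 70, 5.71%, 1.58 to 14.0%), 19q (5.85%, 2.96 to 10.2%) and 7q (6.09%, 3.86 to 9.08%). Arms of 1 chromosome could differ: 12p stood at 20.8% and 12q at 9.35% (6.39 to 13.1%), and 20p at 20% and 20q at 5.56%. GATA1 intervals per Mb, on which the rule depends, numbered 6.58 on 12p, 9.12 on 12q, 3.59 on 20p and 12.55 on 20q. Per Mb beyond the limit, 12p had 0.713 distant intervals (0.441 to 1.09) and 12q 0.368 (0.248 to 0.526). The arm 20p had 0.419 (0.201 to 0.771) and 20q 0.377 (0.181 to 0.693). The exact intervals of the arms of each chromosome overlapped. The arm 19p had most distant intervals per Mb beyond the limit, 1.72 (1.08 to 2.60), and 5p fewest, 0.0931 (0.0254 to 0.238).

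The members were spread over 459 cytogenetic bands. The bands with the highest counts were 19p13.2, with 11 members among its 56 TAL1 intervals (19.6%, 10.2 to 32.4%), and 8q24.3, with 9 among 37 (24.3%, 11.8 to 41.2%). These were 1.14% and 0.937% of all members. The bands 15q22.31 (7 of 35) and 3p21.31 (7 of 50) followed, and 6 members each were found in 11 further bands, among them 10q24.1 (6 of 15) and 11q13.2 (6 of 15). In 19p13.2 the members ran from chr19:7764810-7765035 to chr19:13828134-13828478, lay 17.4 to 186 kb from GATA1 and were 102 to 692 bp wide. Their 11 positions held 1 pair, chr19:11455118-11455434 and chr19:11464126-11464329, 8.69 kb apart. The 9 members in 8q24.3 included 2 pairs, with gaps of 86 bp and 9.47 kb. The 7 members in 3p21.31 also included 2 pairs, with gaps of 3850 and 5134 bp, and those in 15q22.31 included 1, with a gap of 613 bp.

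On the scale of 1 Mb, 719 of 3053 windows held a distant interval, of which 524 held 1, 153 held 2, 37 held 3 and 5 held 4, the most found. By Giemsa class, the distant share of TAL1 intervals was 10.6% (9.78 to 11.5%) in unstained bands and 9.62% (7.89 to 11.6%) and 9.47% (7.91 to 11.2%) in the next 2 classes. It was 13.3% (10.9 to 15.9%) and 14.5% (11.6 to 17.8%) in the 2 darkest. Per Mb beyond the limit there were 0.524 (0.482 to 0.569) in unstained bands and, from the faintest to the darkest stained class, 0.562 (0.457 to 0.684), 0.336 (0.279 to 0.402), 0.268 (0.218 to 0.326) and 0.158 (0.124 to 0.198). The 2 darkest classes thus had the highest shares and the lowest densities.

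Small shares of all 3 groups lay near chromosome ends or centromeres, and the share of sequence in these zones was not computed. Within 2 Mb of a chromosome end lay 4.68% (3.44 to 6.22%) of distant, 4.76% (3.48 to 6.34%) of proximal and 3.78% (3.35 to 4.26%) of shared intervals. Within 2 Mb of the centromeric bands lay 1.66% (0.955 to 2.69%), 2.60% (1.67 to 3.84%) and 2.55% (2.19 to 2.94%). The exact intervals of the 3 groups overlapped at both.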

How the data were processed

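The authors deposited 1 list per library, with chromosome, start and end of each interval in 3 columns and no header. Per the submitters' processing notes, the tools were Trimmomatic, Bowtie2, MACS2 and deepTools and the build was hg19; versions, thresholds, read depth and whether reads were pooled for calling are not given in the sources used here.

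TAL1 intervals were sorted in Python 3.11.15 (numpy 2.4.6, pandas 2.3.3, scipy 1.17.1) by the gap to the nearest GATA1 interval. All 8914 distances were checked with bedtools 2.31.1, which differed for 0, and the sorting was tested on simulated lists. Chromosome lengths came from GenomeInfoDb 1.38.1 and bands from circlize 0.4.16, both for hg19. Available sequence was counted on a grid of 50 bp without centromeric, variable and stalk bands. An interval belonged to the band of its centre. Figures were drawn with matplotlib 3.10.9. The members, the limit and the measures were chosen with earlier results of these data known. Named intervals were the 10 farthest from GATA1, the 5 widest, 3 on each side of the limit, the closest pairs, the bands with most members, and the 5 arms with the highest and lowest shares; the stretches with most members, the sixth closest pair (a tie) and the remaining values were chosen after their values were seen. No gene was assigned, because no annotation of hg19 was used here.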

Additional observations from a re-analysis of the deposited data

Results flagged for a closer look

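The TAL1 list held 4 intervals on the mitochondrial sequence and the GATA1 list 0; these lie outside the chromosomes of the rule and entered no comparison.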

How the results depend on the processing

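All 7 alternatives were planned with earlier results known; a value was taken as moved when it left the 95% interval of the main value (for widths, that of the distant median; for the count, a change of over 1.5 times). Of 49 alternative values, 28 stayed within these bounds, 21 moved and 0 changed sign. Only the width differences could change sign, since counts and shares cannot be negative. Moving the limit moves the members by construction. At 5 kb the distant share of TAL1-only intervals was 66.5%, the width difference to proximal intervals 70.5 bp, the share with a TAL1 neighbour 18.8% and the lowest chromosome share 8.80%. At 25 kb the TAL1-only share was 37.8% and the lowest chromosome, now 19, had 4.38%. At 50 kb 458 members remained (24.3%), with a width difference of 34 bp, 15.8% on chromosome 13 and 1.55% on chromosome 19. Without GATA1 intervals under 150 bp, the TAL1 intervals identical to them became TAL1-only, which gave 47.5%, 94.5 bp and -105.5 bp against shared intervals. Without TAL1 intervals under 150 bp the values were 53.4%, 26 bp and 7.41% with a neighbour. With TAL1 intervals within 2 kb joined they were 60.6%, 19 bp, -124 bp and 3.78%. The distant median stayed above the proximal and below the shared one under all 7, chromosome 13 kept the highest share, and chromosome 6 the lowest except at 25 and 50 kb. No paired analysis was possible because each factor has 1 library. Leaving out a replicate was not possible for the same reason, and unknown depth limits every count.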

Other observations

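The mirror group, GATA1-only intervals more than 12500 bp from any TAL1 interval, numbered 11466 and had a median width of 276 bp, against 298 bp for the distant TAL1-only intervals. GATA1-only intervals within 12500 bp of a TAL1 interval numbered 4274 and had a median of 237 bp. In both lists the unshared intervals near the other factor thus had the smaller median over all intervals. For TAL1 the medians were 307 bp (distant) and 298 bp (proximal) without a TAL1 neighbour within 12500 bp. With such a neighbour the order reversed, at 211 and 232 bp. The GATA1 list was not split in this way.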
